A study of Mus musculus with 93 samples.

Results

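Described here are 9 genes that mark periportal hepatocytes, taken as the 9 rows of the table of 53465 genes whose Ensembl identifiers map to Cyp2f2, Hal, Sds, Gls2, Cdh1, Pigr, Ctsc, Aldh1b1 and Sfxn1. They were measured by RNA sequencing in the livers of 93 male mice of 7 inbred strains. C57BL/6J, DBA/2J, A/J and 129S1/SvImJ are laboratory strains, and WSB/EiJ, CAST/EiJ and PWK/PhJ are derived from wild mice. Each strain was fed a control diet (CD, 10% of energy from fat) or a western-style diet (WD, 40% from fat) that began at 7 wk of age and lasted 17 wk. Every mouse, on either diet, was kept at 30°C (thermoneutrality) from 6 wk of age, was bred in 1 facility after import of the strain, and was killed at 24 wk after 4 h without food. On CD there were 8 C57BL/6J, 6 DBA/2J, 5 A/J, 7 129S1/SvImJ, 6 WSB/EiJ, 7 CAST/EiJ and 6 PWK/PhJ mice, and on WD 8, 7, 6, 6, 6, 8 and 7 of the same strains. Whole liver was sequenced, so that every cell type of the organ contributed. An inbred strain is 1 genotype, so each strain stands for itself and not for its subspecies. All 9 genes were expressed in every mouse, with at least 79 reads (the lowest, for Cdh1), and all 9 passed the filter on low counts.

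Hepatocytes are not alike along the blood path of the liver lobule. Blood enters beside the portal tract and leaves through the central vein. Hepatocytes near the portal tract, called periportal, are known for gluconeogenesis, urea synthesis and the breakdown of amino acids. Those near the central vein, called pericentral, are known for glutamine synthesis and cytochrome P450 metabolism, and Wnt signals from the central vein keep them in that state. A gene of either zone can move in whole-liver RNA because its zone gains or loses cells or because each cell holds more or less of its transcript. In bulk liver RNA these cannot be told apart.

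Of the 9 genes, 3 encode enzymes that release nitrogen from amino acids. Hal is histidine ammonia-lyase, the first step of histidine breakdown. Sds is serine dehydratase, which turns serine into pyruvate. Gls2 is the liver-type glutaminase, which supplies ammonium to the urea cycle. Cyp2f2 is a cytochrome P450 monooxygenase, Aldh1b1 a mitochondrial aldehyde dehydrogenase and Sfxn1 a mitochondrial serine transporter. Cdh1 is E-cadherin, a cell adhesion protein, Pigr is the receptor that carries polymeric immunoglobulin into bile, and Ctsc is cathepsin C, a lysosomal peptidase.

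Sequencing gave 40020424 to 49894856 reads on genes per mouse. Reads of all strains were mapped to the genome of C57BL/6J, and the share that did not map had group means from 2.11% in A/J on WD to 13.3% in CAST/EiJ on WD. Values below are CPM, read counts divided by the TMM-scaled library size, and diet effects are log2 fold changes of WD over CD from 1 limma-voom fit over all 93 mice. Effects were called at an adjusted p below 0.05 (Benjamini–Hochberg over 19110 genes). Over all genes, log2 fold changes had a median between -0.01 and 0.02 in every strain. Nothing in the labels ties mice to a litter or cage, so each mouse was taken as independent. In this fit all 14 groups share 1 estimate of the spread per gene. Its p-values therefore rest on the spread between mice of the same group, pooled over all strains and both diets. Mice are numbered within a group by accession order only. The hepatocyte markers Alb, Apoa1, Apob, Ttr and Trf had a summed level of 56401 to 210938 CPM per mouse.

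In C57BL/6J, 1 mouse of each diet stood apart in several periportal genes. CD mouse 2 had 219 CPM of Aldh1b1, where the other 7 mice had 13.7 to 37.9 CPM, and 175 CPM of Cyp2f2, where the others had 539.9 to 702 CPM. It also had the highest Cdh1 of its group, 135 CPM, and the lowest Pigr, 499.6 CPM. WD mouse 3 had 90.7 CPM of Cdh1, where the other 7 mice had 16.2 to 27.9 CPM, and 194 CPM of Sds, where the others had 59.3 to 101 CPM. In both mice Hal, Gls2, Sds, Cdh1 and Aldh1b1 lay above the median of the other mice of the group, and Cyp2f2 and Pigr below it. Markers of other cell types also set both mice apart. The summed level of 8 cholangiocyte markers was 442 CPM in CD mouse 2 against 43.5 to 200.1 CPM in the other mice, and 412 CPM in WD mouse 3 against 48.3 to 216 CPM. The summed level of 6 endothelial markers was lower in CD mouse 2 (232 CPM) than in the others (319.7 to 361 CPM), and likewise in WD mouse 3 (225 CPM against 300.5 to 331 CPM). Both mice also had the highest summed stellate cell markers and the lowest summed Kupffer cell markers of their groups. Summed leukocyte and neutrophil markers were the highest of the group in CD mouse 2 and within the range of the others in WD mouse 3. Their RNA integrity numbers, 8.7 and 8.8, lay within the ranges of their groups. What set these mice apart was not tested, and results in C57BL/6J are given with and without them where the mouse matters.

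**Figure D1:**
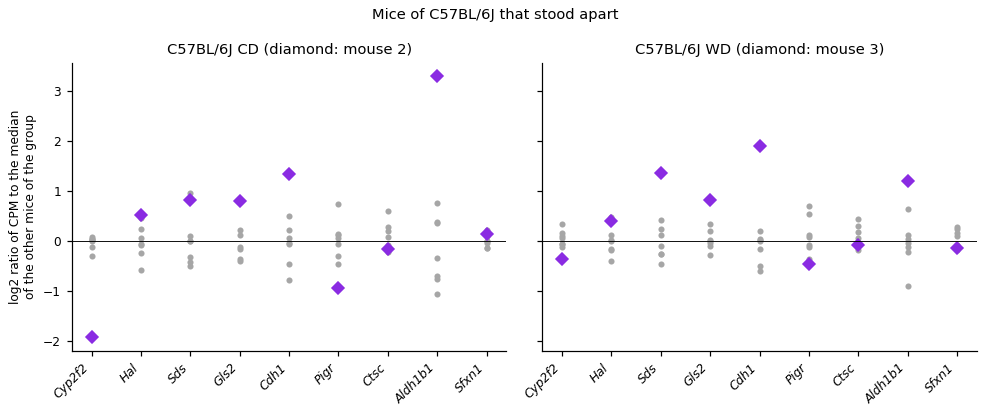
Each point is 1 C57BL/6J mouse on CD (left) or WD (right), plotted as the log2 ratio of its CPM to the median of the other mice of its group, for each of the 9 genes. The diamonds mark CD mouse 2, with Aldh1b1 at 219 CPM and Cyp2f2 at 175 CPM, and WD mouse 3, with Cdh1 at 90.7 CPM.

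Per kilobase of exon, Cyp2f2 and Pigr were by far the most abundant of the 9 transcripts. Their levels, averaged over the 14 groups, were 519.6 and 402 CPM per kb. Gls2 (74.8), Sds (69.9) and Hal (56.4) followed, then Aldh1b1 (34.0), Ctsc (16.8) and Sfxn1 (11.9), and Cdh1 was lowest at 5.86 CPM per kb. Levels of the 9 genes differed between strains, as did those of most genes. The F test of equal strain levels was passed by 9 of 9 genes on CD and by 9 of 9 on WD. These counts are near the shares of all genes that passed it, 93.7% and 93.9%. With cohort within strain in the fit, 8 of 9 passed on WD, with Aldh1b1 at an adjusted p of 0.094 (limma). That fit compares the first cohort of each strain, which is not the same cohort for all strains. It therefore cannot adjust differences of level between strains for cohort. Strain accounted for 35.9% (Aldh1b1) to 81.7% (Pigr) of the variance of log2 CPM, and diet within strains for 0.887% (Pigr) to 28.3% (Hal). WSB/EiJ had the highest mean of Hal, Sds, Gls2, Pigr and Aldh1b1 on both diets, and the lowest mean of Cdh1 on both. All WSB/EiJ mice came in cohorts that held no other strain, so strain and cohort cannot be told apart in its levels. The other strains shared cohorts only in part, so their differences of level, and the variance assigned to strain, can also hold differences between cohorts. Strains differ from C57BL/6J in sequence, and the share of unmapped reads differed between them. Its part in the differences of level between strains was not tested.

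**Figure D2:**
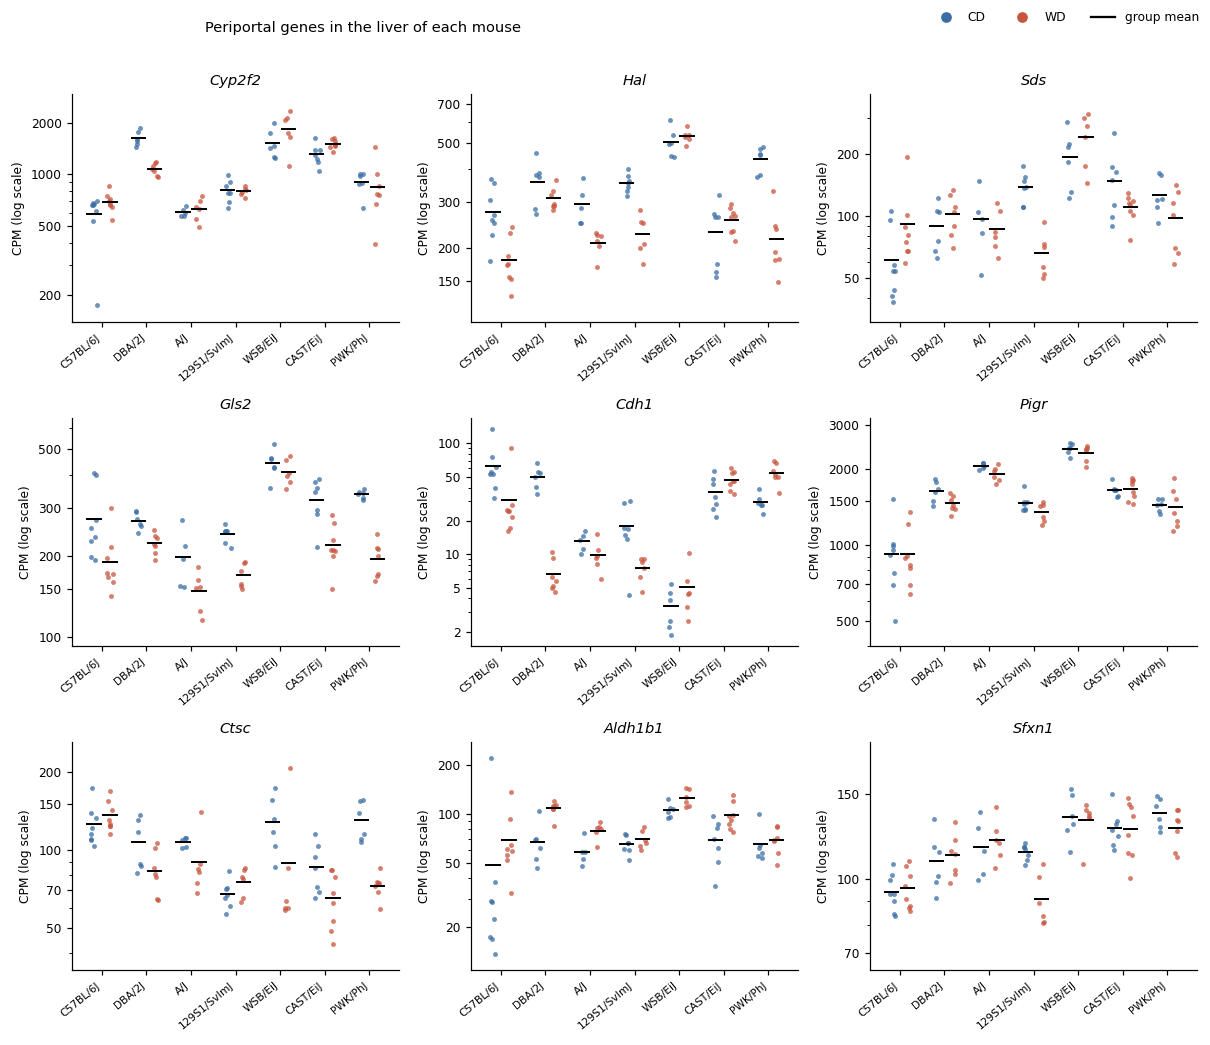
Each point is the CPM (log axis) of 1 mouse and each black bar the mean of a group of 5 to 8 mice, with CD on the left and WD on the right of each strain. Cdh1 spans from 1.88 to 135 CPM, and in DBA/2J it was 4.53 to 10.4 CPM on WD, below every DBA/2J mouse on CD.

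Most called effects of WD on these genes were decreases, and the strains differed in which genes fell. Of 63 effects (9 genes in 7 strains), 16 were called lower and 4 higher on WD. In C57BL/6J, Hal, Gls2 and Cdh1 fell and Sds and Aldh1b1 rose, where 11.9% of all genes fell and 14.3% rose. In DBA/2J, Cyp2f2 and Cdh1 fell and Aldh1b1 rose, beside 7.77% and 10.2% of all genes. In A/J only Hal was called, lower, where 4.64% of all genes fell and 4.39% rose. 129S1/SvImJ had the largest count of decreases, with Hal, Sds, Gls2, Cdh1 and Sfxn1 lower and no gene higher, beside 13.6% and 14.5% of all genes. In WSB/EiJ Ctsc alone fell, beside 3.97% of all genes lower and 4.97% higher. In CAST/EiJ Gls2 alone fell, beside 9.73% lower and 9.77% higher. In PWK/PhJ, Hal, Gls2 and Ctsc fell and Cdh1 rose, beside 14.5% and 15.1% of all genes. The counts of decreases, 5 of 9 in 129S1/SvImJ, 3 of 9 in C57BL/6J and PWK/PhJ, 2 of 9 in DBA/2J and 1 of 9 in A/J, WSB/EiJ and CAST/EiJ, are each a larger share than that of all genes in the strain, but a count of 1 is the smallest above 0 that 9 genes can give. The mice came in cohorts, 2 per strain and 3 in CAST/EiJ, each with both diets. All 20 called effects had the same direction in every cohort of the strain.

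**Figure D3:**
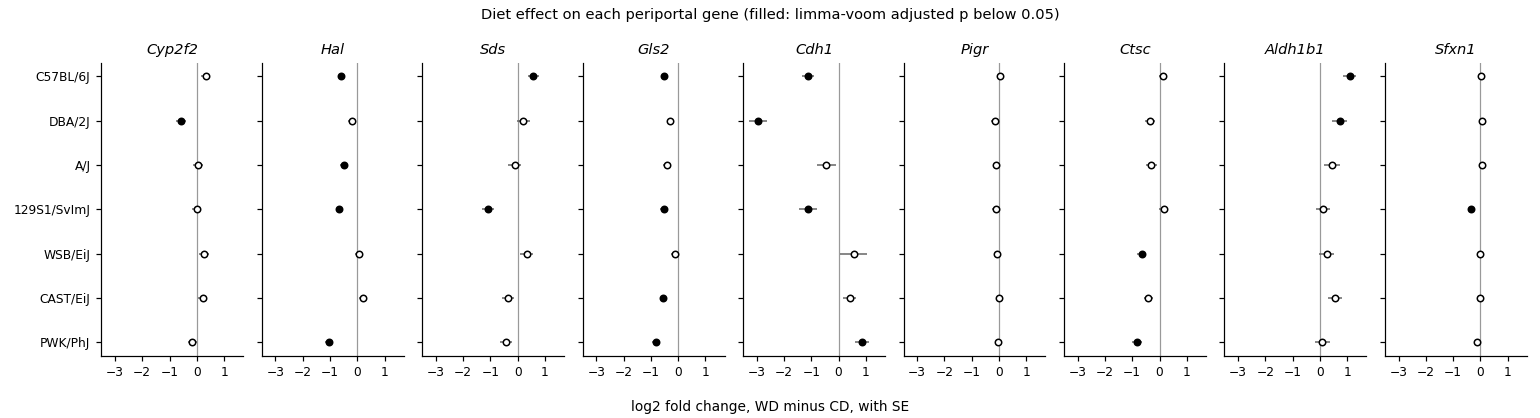
Points are log2 fold changes of WD over CD with their SE (horizontal bars) for each gene and strain, and filled points were called at a limma-voom adjusted p below 0.05. Gls2 lies left of 0 and Aldh1b1 right of 0 in 7 of 7 strains, and Cdh1 runs from -2.95 in DBA/2J to 0.86 in PWK/PhJ.

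Hal fell on WD in 4 strains, most in PWK/PhJ. The gene lies at chr10:93488768-93519304 on the + strand (GRCm38, ENSMUSG00000020017) and overlaps no other annotated gene. In PWK/PhJ its level was 372 to 482 CPM (median 452, n = 6) on CD and 149 to 329 CPM (median 194, n = 7) on WD. The groups did not overlap, and the level fell 2.06-fold on WD (log2 fold change -1.04, SE 0.14, adjusted p = 8.1e-09). In 129S1/SvImJ the mice had 316 to 400.2 CPM (median 354, n = 7) on CD and 175 to 279 CPM (median 229, n = 6) on WD, again without overlap (log2 fold change -0.65, SE 0.14, adjusted p = 0.00018). In C57BL/6J the ranges were 179 to 365 CPM (median 261, n = 8) and 132 to 241 CPM (median 174, n = 8), and 5 of the 8 WD mice lay below every CD mouse (log2 fold change -0.59, SE 0.12, adjusted p = 0.00013). This call was kept with any 1 of the 16 mice left out. In A/J the 5 CD mice had a median of 285 CPM and reached 370.2 CPM, and the WD mice had 169 to 229 CPM (median 217, n = 6), so that all 6 lay below every CD mouse (log2 fold change -0.48, SE 0.15, adjusted p = 0.032). This call was lost without any 1 of 5 of the 11 A/J mice, with adjusted p up to 0.15. WSB/EiJ and CAST/EiJ had no decrease: their log2 fold changes were 0.08 (adjusted p = 0.84) and 0.20 (adjusted p = 0.28).

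WSB/EiJ held the most Hal on WD, 530.1 ± 30.6 CPM (SD, n = 6), above the next strain, DBA/2J, at 309 ± 29.7 CPM (n = 7) with no overlap (exact permutation test, adjusted p = 0.018 over 108 tests of neighbouring strains). DBA/2J was in turn above CAST/EiJ on WD (exact permutation test, adjusted p = 0.029). Here and below, the order of strains was taken from the same values, so the data set which pairs were tested. These tests compare neighbours in that order only. On CD the order was WSB/EiJ, PWK/PhJ, 129S1/SvImJ, DBA/2J, A/J, C57BL/6J and CAST/EiJ, by mean log2 CPM, and only PWK/PhJ and 129S1/SvImJ differed beyond their spread among these neighbours (exact permutation test, adjusted p = 0.046).

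The RefSeq promoter of Hal, from 250 bases before to 50 after its start (chr10:93488518-93488817, + strand, GRCm38.p6), is shown because Hal was called in more strains than any other gene with an entry in the promoter table. Capitals mark matches to the motifs searched on both strands.
Hal: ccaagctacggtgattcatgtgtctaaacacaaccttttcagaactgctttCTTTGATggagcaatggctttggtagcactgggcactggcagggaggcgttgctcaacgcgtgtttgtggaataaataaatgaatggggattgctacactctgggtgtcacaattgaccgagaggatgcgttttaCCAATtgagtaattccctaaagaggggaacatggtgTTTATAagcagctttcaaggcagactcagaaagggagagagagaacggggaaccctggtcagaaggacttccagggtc
With the start site at +1, the match CTTTGAT (the TCF/LEF motif of Wnt-responsive genes) begins at -199, CCAAT at -64, and TTTATA, the TATA box letters TATAAA read on the other strand, at -28. These letters are found in 3.73% (CTTTGAT), 37.4% (CCAAT) and 13.6% (TATAAA) of 32851 mouse promoters of the same length. The other motifs searched were CAAAGTCCA and CAAAGTTCA (HNF4 type), CACGTG (E-box) and TGACGTCA (CRE), present in 0.475%, 0.390%, 7.15% and 1.79% of promoters. None of these 4 matched in the window of Hal. A match is a run of letters and not a measured site.

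Sds moved in opposite directions in 2 strains. It lies at chr5:120476526-120483932 (+ strand, GRCm38, ENSMUSG00000029597), where Plbd2 and Gm15690 are annotated on the opposite strand with up to 360 shared exon bases, and the strand setting of the counting is not given in the sources used here. In 129S1/SvImJ the level was 110.5 to 175 CPM (median 138, n = 7) on CD and 50.4 to 93.9 CPM (median 63.7, n = 6) on WD. All WD mice lay below all CD mice, a decrease of 2.13-fold (log2 fold change -1.09, SE 0.23, adjusted p = 0.00017). In C57BL/6J the level was 38.5 to 106 CPM (median 54.5, n = 8) on CD and 59.3 to 194 CPM (median 78.4, n = 8) on WD (log2 fold change 0.57, SE 0.21, adjusted p = 0.031). The groups overlapped, and 1 of the 8 WD mice, mouse 3, lay above every CD mouse. Without this mouse the log2 fold change was 0.41 (adjusted p = 0.13), and the call was also lost without CD mouse 3 (0.072 adjusted p), CD mouse 4 (0.075), CD mouse 6 (0.083) or WD mouse 8 (0.054). WSB/EiJ had the highest means, 194 ± 62.3 CPM on CD (SD, n = 6) and 242 ± 68.4 CPM on WD (n = 6). On WD it lay above the next strain, CAST/EiJ, without overlap (exact permutation test, adjusted p = 0.018), and on CD no neighbours in the order of strains differed beyond their spread.

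Gls2 was lower on WD in sign in 7 of 7 strains, and fell in 4. It lies at chr10:128194457-128210004 (+ strand, GRCm38, ENSMUSG00000044005) and shares 97 exon bases with Spryd4 on the opposite strand. The largest change was in PWK/PhJ, from 324 to 355 CPM (median 341, n = 6) to 161 to 241 CPM (median 199, n = 7). The CD mice were tightly grouped and no WD mouse reached them (log2 fold change -0.81, SE 0.13, adjusted p = 1.4e-06). In 129S1/SvImJ the mice had 214 to 262 CPM (median 247, n = 7) on CD and 151 to 189 CPM (median 166, n = 6) on WD, also without overlap (log2 fold change -0.51, SE 0.13, adjusted p = 0.0018). In CAST/EiJ the mice had 215 to 388 CPM (median 344, n = 7) on CD and 151 to 283 CPM (median 210.2, n = 8) on WD. The groups overlapped, and 5 of 8 WD mice lay below every CD mouse (log2 fold change -0.56, SE 0.12, adjusted p = 0.0005). In C57BL/6J the levels were 193 to 406 CPM (median 244, n = 8) on CD and 141 to 299.8 CPM (median 172, n = 8) on WD, again with 5 of 8 WD mice below every CD mouse (log2 fold change -0.50, SE 0.12, adjusted p = 0.00075). With any 1 of the 16 mice of this strain left out, the 2 that stood apart included, the log2 fold change lay between -0.59 and -0.41 and the call was kept. It was lost when each strain was fitted separately, with a log2 fold change of -0.50 (adjusted p = 0.059). Log2 fold changes in the other strains were -0.40 for A/J (adjusted p = 0.062), -0.28 for DBA/2J (adjusted p = 0.14) and -0.11 for WSB/EiJ (adjusted p = 0.75). With separate fits DBA/2J was called lower as well, at -0.30 (adjusted p = 0.0055). WSB/EiJ held the most Gls2 on both diets, above PWK/PhJ on CD (exact permutation test, adjusted p = 0.029) and above DBA/2J on WD (exact permutation test, adjusted p = 0.018), without overlap in either case.

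Between mice of the same strain and diet, Sds and Gls2 varied together. Each mouse's log2 CPM was taken as the deviation from the mean of its group, and the 36 pairs of genes were compared over the 93 mice with 100000 permutations within groups. For Sds and Gls2 Pearson's r was 0.75 and Spearman's rho 0.71 (permutation test, adjusted p = 0.00036 for both, from the smallest p these permutations can give, 1e-05). Without the 2 mice farthest from the median of Sds r was 0.70, with deviations from the mean of group and cohort 0.78, and among CD and WD mice alone 0.81 and 0.69. In all, 7 pairs with r above 0 and 1 below 0 passed both tests. The second largest was Hal and Gls2 at r = 0.41 (adjusted p = 0.0095, permutation test), and the negative pair was Cdh1 and Pigr at r = -0.39 (adjusted p = 0.0095, permutation test). When deviations were taken from the mean of group and cohort, with permutation within them, Sds and Gls2 was the 1 pair that passed. The negative r of Aldh1b1 with Cyp2f2, -0.53, was -0.23 without C57BL/6J CD mouse 2, and its rho of -0.11 did not pass. The genes of a pair share libraries, depth and tissue makeup in each mouse.

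**Figure D4:**
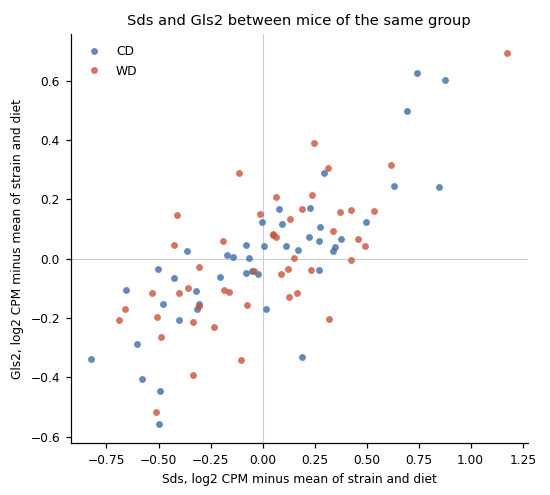
Each point is 1 of 93 mice, plotted by its log2 CPM of Sds (horizontal) and Gls2 (vertical) minus the mean of its strain and diet. Mice with more Sds than their group had more Gls2, with r = 0.75, on CD and on WD.

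Cdh1 showed the widest range of levels and the most divergent diet effects. It lies at chr8:106603351-106670246 (+ strand, GRCm38, ENSMUSG00000000303) and overlaps no annotated gene. On CD the group means ran from 3.39 ± 1.41 CPM (SD, n = 6) in WSB/EiJ to 63.0 ± 31.7 CPM (n = 8) in C57BL/6J, a ratio of 18.6, whereas the ratio for the other 8 genes was between 1.46 and 3.15. These ratios include C57BL/6J CD mouse 2, at 135 CPM of Cdh1 where the other mice had a median of 53.3 CPM. C57BL/6J was the lowest strain for Aldh1b1 on CD, and this mouse, at 219 CPM, raised its mean to 48.2 CPM. The other mice had a median of 22.4 CPM of Aldh1b1, so without mouse 2 its ratio would be larger and that of Cdh1 smaller. The order on CD was C57BL/6J, DBA/2J, CAST/EiJ, PWK/PhJ, 129S1/SvImJ, A/J and WSB/EiJ, and of these neighbours only A/J and WSB/EiJ differed beyond their spread (exact permutation test, adjusted p = 0.029), with no overlap. On WD C57BL/6J did not overlap the next strain, A/J (exact permutation test, adjusted p = 0.018). The gap was narrow, with the lowest C57BL/6J mouse at 16.2 CPM and the highest A/J mouse at 15.2 CPM. PWK/PhJ, CAST/EiJ and C57BL/6J had means of 30.9 to 54.3 CPM, and A/J, 129S1/SvImJ, DBA/2J and WSB/EiJ 5.11 to 9.91 CPM. The C57BL/6J mean, 30.9 CPM, includes WD mouse 3 at 90.7 CPM, and the other mice of its group had a median of 24.3 CPM.

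In DBA/2J the 6 mice on CD had 34.6 to 66.1 CPM (median 51.7) and the 7 on WD 4.53 to 10.4 CPM (median 5.80). The groups were far apart, and Cdh1 fell 7.72-fold (log2 fold change -2.95, SE 0.32, adjusted p = 1.8e-11). The effect was -2.76 in cohort 4 and -3.11 in cohort 5 as differences of mean log2 CPM. C57BL/6J went from 32.0 to 135 CPM (median 54.2, n = 8) to 16.2 to 90.7 CPM (median 24.4, n = 8), with 7 of 8 WD mice below every CD mouse (log2 fold change -1.13, SE 0.23, adjusted p = 9.1e-05). Without WD mouse 3 the log2 fold change was -1.38 (adjusted p = 5.1e-07), and without CD mouse 2 -0.95 (adjusted p = 0.00068). In 129S1/SvImJ the level was 4.26 to 30.2 CPM (median 17.1, n = 7) on CD and 4.60 to 8.99 CPM (median 8.02, n = 6) on WD (log2 fold change -1.11, SE 0.33, adjusted p = 0.0069). The ranges overlapped through CD mouse 7, at 4.26 CPM where the other 6 CD mice had 13.9 to 30.2 CPM, and without it the log2 fold change was -1.42 (adjusted p = 0.00019). PWK/PhJ went the other way, from 22.9 to 38.6 CPM (median 28.6, n = 6) to 35.8 to 68.9 CPM (median 53.2, n = 7), with 6 of 7 WD mice above every CD mouse (log2 fold change 0.86, SE 0.26, adjusted p = 0.0067). CAST/EiJ (0.41, adjusted p = 0.24), WSB/EiJ (0.55, adjusted p = 0.59) and A/J (-0.45, adjusted p = 0.48) were not called.

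Cholangiocytes, the cells lining bile ducts, also express E-cadherin, and their markers were read beside Cdh1. In PWK/PhJ 6 of 8 cholangiocyte markers rose on WD, and their summed level was 64.8 to 140.4 CPM on CD and 159 to 529.9 CPM on WD. In DBA/2J 0 of 8 rose and 1, Sox9, fell (log2 fold change -0.75, adjusted p = 0.0076), and the summed level was 26.2 to 33.7 CPM on CD and 25.7 to 33.2 CPM on WD. In C57BL/6J and 129S1/SvImJ 1 of 8, Spp1, rose while Cdh1 fell. Over all genes, 15.1% rose in PWK/PhJ, 10.2% in DBA/2J, 14.3% in C57BL/6J and 14.5% in 129S1/SvImJ, and 7.77% fell in DBA/2J. A count of 1 of 8 is the smallest above 0 that the list can give, and in C57BL/6J and 129S1/SvImJ it is near these shares. Spp1 carried most of the sum, at 339 CPM in PWK/PhJ on WD, and Krt7, Krt19, Epcam, Cftr and Cldn4 were each at or below 5.12 CPM in every group mean. Their part in the levels of Cdh1 was not tested. Cdh2, the N-cadherin that hepatocytes also carry, rose in PWK/PhJ (0.34, adjusted p = 0.0002) and was called in no other strain.

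Cyp2f2 fell in DBA/2J alone. It lies at chr7:27119909-27133660 (+ strand, GRCm38, ENSMUSG00000052974), with 274 exon bases shared with Gm15883 on the opposite strand. The mice had 1440.3 to 1864 CPM (median 1585, n = 6) on CD and 961 to 1175 CPM (median 1077, n = 7) on WD, with no overlap (log2 fold change -0.59, SE 0.18, adjusted p = 0.011). In C57BL/6J the log2 fold change was 0.32 (adjusted p = 0.11) and 0.10 (adjusted p = 0.60) without CD mouse 2. Levels set the strains apart: on CD, DBA/2J (1622 CPM), WSB/EiJ (1521 CPM) and CAST/EiJ (1308 CPM) led, with no difference beyond the spread between the first and the second or the second and the third, CAST/EiJ lay above PWK/PhJ (901 CPM; exact permutation test, adjusted p = 0.018), and 129S1/SvImJ (808 CPM) above A/J (605 CPM; exact permutation test, adjusted p = 0.032). On WD, CAST/EiJ lay above DBA/2J and DBA/2J above 129S1/SvImJ, both without overlap (exact permutation test, adjusted p = 0.018 for each).

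Pigr was called in 0 of 7 strains, and its log2 fold changes lay between -0.16 (DBA/2J) and 0.02 (C57BL/6J) with SEs of 0.10 to 0.13. The gene lies at chr1:130826684-130852249 (+ strand, GRCm38, ENSMUSG00000026417). Its level differed between strains. WSB/EiJ had 2417 ± 122 CPM on CD (SD, n = 6) and 2316 ± 172 CPM on WD (n = 6), and C57BL/6J 923 ± 301 CPM on CD (SD, n = 8) and 919 ± 245 CPM on WD (n = 8). On CD, WSB/EiJ lay above A/J and A/J above CAST/EiJ, both without overlap (exact permutation test, adjusted p = 0.029 for each), and C57BL/6J lay below PWK/PhJ (exact permutation test, adjusted p = 0.029). On WD the top and bottom of the order differed too, with overlap (exact permutation test, adjusted p = 0.029 for WSB/EiJ over A/J and 0.032 for 129S1/SvImJ over C57BL/6J).

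Ctsc fell in PWK/PhJ and WSB/EiJ. It lies at chr7:88278085-88310888 (+ strand, GRCm38, ENSMUSG00000030560). In PWK/PhJ the level was 107 to 156 CPM (median 127, n = 6) on CD and 59.4 to 84.9 CPM (median 74.3, n = 7) on WD, without overlap (log2 fold change -0.82, SE 0.17, adjusted p = 0.00011). In WSB/EiJ it was 85.6 to 173 CPM (median 124, n = 6) on CD and 58.9 to 207 CPM (median 61.8, n = 6) on WD (log2 fold change -0.66, SE 0.18, adjusted p = 0.0093). WD mouse 4 lay above every CD mouse and the other 5 below, at 58.9 to 85.1 CPM. Without mouse 4 the log2 fold change was -0.94 (adjusted p = 8.4e-06). With mouse 4 the call was lost by edgeR, at -0.52 (adjusted p = 0.059), and by separate fits, at -0.66 (adjusted p = 0.19). Leukocytes also express cathepsin C. Mouse 4 had the highest summed level of 8 leukocyte markers in its group, 268 CPM against 77.5 to 214 CPM, and A/J WD mouse 3, whose Ctsc was 140.3 CPM against 68.2 to 88.6 CPM, had 474 CPM against 166 to 254 CPM. Both mice also had the highest summed Kupffer cell, stellate cell and neutrophil markers of their groups. The WSB/EiJ mouse had the lowest summed hepatocyte markers, 56401 CPM against 77705 to 99275 CPM, and the lowest Cyp2f2. What raised Ctsc in these mice was not tested. In PWK/PhJ the summed level was 24.0 to 125 CPM on CD and 139.7 to 254 CPM on WD, 7 of 8 markers rising while Ctsc fell. In 129S1/SvImJ 8 of 8 rose and Ctsc had a log2 fold change of 0.15 (adjusted p = 0.56), and in C57BL/6J 6 of 8 rose and Ctsc had 0.12 (adjusted p = 0.63). On WD, C57BL/6J lay above A/J, the next strain (exact permutation test, adjusted p = 0.029).

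Aldh1b1 was higher on WD in sign in 7 of 7 strains, and rose in C57BL/6J and DBA/2J. It lies at chr4:45799022-45804604 (+ strand, GRCm38, ENSMUSG00000035561). In C57BL/6J the CD mice other than mouse 2 had 13.7 to 37.9 CPM and the WD mice 32.5 to 136 CPM (median 60.1, n = 8). With mouse 2 the test gave log2 fold change 1.09, SE 0.24, adjusted p = 0.00023, and without it 1.51 (adjusted p = 1.4e-10). Tests on the counts themselves, with mouse 2 in the fit, did not call it (0.52 by edgeR quasi-likelihood, adjusted p = 0.15, and 0.53 by DESeq2, adjusted p = 0.13). In DBA/2J the level was 46.5 to 104 CPM (median 64.9, n = 6) on CD and 83.4 to 120.3 CPM (median 112, n = 7) on WD, with 6 of 7 WD mice above every CD mouse (log2 fold change 0.72, SE 0.26, adjusted p = 0.044). This call was lost when any 1 of 11 of the 13 DBA/2J mice was left out, with adjusted p up to 0.12. The spread in this fit is shared over strains and includes C57BL/6J CD mouse 2, and the DBA/2J call was not read without that mouse. Under the alternatives that kept all mice (limma, edgeR and DESeq2) its adjusted p ran from 0.0012 to 0.11. With sample quality weights in the limma fit, Aldh1b1 was also called higher in A/J (0.48, adjusted p = 0.027) and CAST/EiJ (0.56, adjusted p = 0.015). WSB/EiJ had the highest level on CD, 105 ± 10.8 CPM (SD, n = 6), above CAST/EiJ (exact permutation test, adjusted p = 0.029).

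The RefSeq promoters of Aldh1b1 (chr4:45798772-45799071, + strand) and Ctsc (chr7:88277835-88278134, + strand), on GRCm38.p6 and of the same span, are shown as those of the genes called in 2 strains, the first only upward and the second only downward. Capitals mark motif matches, of which Ctsc has none of those searched.
Aldh1b1: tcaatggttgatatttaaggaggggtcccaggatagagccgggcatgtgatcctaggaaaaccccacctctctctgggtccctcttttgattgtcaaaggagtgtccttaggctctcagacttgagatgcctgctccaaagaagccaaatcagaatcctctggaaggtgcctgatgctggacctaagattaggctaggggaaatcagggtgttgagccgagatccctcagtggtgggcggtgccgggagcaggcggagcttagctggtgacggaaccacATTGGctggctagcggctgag
Ctsc: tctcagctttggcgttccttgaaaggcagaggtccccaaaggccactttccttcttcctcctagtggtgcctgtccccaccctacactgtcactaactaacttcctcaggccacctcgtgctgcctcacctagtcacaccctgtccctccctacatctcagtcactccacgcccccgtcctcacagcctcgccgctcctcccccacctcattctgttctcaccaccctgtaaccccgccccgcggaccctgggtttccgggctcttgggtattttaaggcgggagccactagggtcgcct
The match in Aldh1b1 is CCAAT on the other strand, beginning at +30. GC content was 54.7% in Aldh1b1, 60.3% in Ctsc and 47.7% in Hal. The table also held Cyp2f2, Pigr and Sfxn1, of which Pigr matched CACGTG at -71 and the other two no motif. Entries for Sds, Gls2 and Cdh1 were not used here.

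Sfxn1, at chr13:54071869-54108342 (+ strand, GRCm38, ENSMUSG00000021474), had the smallest spread of levels, with group means within 1.51-fold. It fell in 129S1/SvImJ alone, from 106 to 119 CPM (median 115, n = 7) on CD to 80.8 to 107 CPM (median 86.4, n = 6) on WD, with 5 of 6 WD mice below every CD mouse (log2 fold change -0.33, SE 0.08, adjusted p = 0.0012). Its log2 fold change in the other strains lay between -0.11 and 0.06. Sfxn5, a family member, rose in C57BL/6J, WSB/EiJ and CAST/EiJ, most in CAST/EiJ (log2 fold change 0.88, adjusted p = 3.9e-07). No neighbours in the order of Sfxn1 levels differed beyond their spread on either diet.

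Whether the diet effect differed between strains was tested directly. The F test of equal effects over the 7 strains was passed by 5 of 9 genes, where 37.5% of all genes passed it: Cdh1 (adjusted p = 3.1e-12, limma), Hal (1.5e-06), Sds (0.00032), Ctsc (0.0031) and Cyp2f2 (0.017). Sfxn1 (0.052), Gls2 (0.054), Aldh1b1 (0.13) and Pigr (0.93) did not pass. Sfxn1 passed with cohort within strain in the fit (adjusted p = 0.034, limma) or with the RNA integrity number (0.045), which made 6 genes. Without C57BL/6J CD mouse 2 the count was 8, with Sfxn1 at 0.035, Gls2 at 0.040 and Aldh1b1 at 3.3e-05, and Pigr at 0.93. Each strain was also set against the mean of the other 6. In PWK/PhJ 4 genes differed (background 16.3%): Hal by -0.77 (SE 0.15, adjusted p = 0.00015), Gls2 by -0.42 (SE 0.15, adjusted p = 0.037), Ctsc by -0.58 (SE 0.19, adjusted p = 0.022) and Cdh1 by 1.64 (SE 0.29, adjusted p = 2.8e-05) on the log2 scale. In CAST/EiJ 2 differed (background 14.5%), Hal by 0.68 (SE 0.14, adjusted p = 0.00029) and Cdh1 by 1.11 (SE 0.28, adjusted p = 0.003). DBA/2J had 2 (background 7.77%), Cyp2f2 by -0.70 (SE 0.19, adjusted p = 0.013) and Cdh1 by -2.81 (SE 0.35, adjusted p = 1e-08). 129S1/SvImJ had 2 (background 6.28%), Sds by -1.12 (SE 0.25, adjusted p = 0.0028) and Sfxn1 by -0.33 (SE 0.09, adjusted p = 0.015). C57BL/6J had 1 (background 4.69%), Sds by 0.82 (SE 0.23, adjusted p = 0.022). A/J and WSB/EiJ had 0, where 0.466% and 0.947% of all genes differed.

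Other periportal genes, a list of 18, were read from the same fit. Most encode enzymes of the urea cycle, gluconeogenesis and amino acid breakdown, and the list also holds genes outside these pathways, such as Hsd17b13, Hsd17b6, Apoa4 and Igf1. The number called lower on WD was 12 of 18 for 129S1/SvImJ, 11 for PWK/PhJ, 7 each for C57BL/6J and CAST/EiJ, 6 for A/J, 3 for DBA/2J and 0 for WSB/EiJ, and at most 2 were called higher in any strain. Over all genes, 3.97% (WSB/EiJ) to 14.5% (PWK/PhJ) were called lower and 4.39% (A/J) to 15.1% (PWK/PhJ) higher. The same shares stand beside the counts of the lists below. Their median log2 fold change was -0.59 for PWK/PhJ, -0.50 for 129S1/SvImJ and -0.08 for WSB/EiJ. For the 9 genes the medians were -0.17, -0.33 and 0.08. G6pc, the last enzyme of gluconeogenesis, fell in 5 strains, most in 129S1/SvImJ (1236 to 148 CPM, log2 fold change -3.35, adjusted p = 1.7e-10). Apoa4, an apolipoprotein of lipid transport, rose in 4 strains, most in C57BL/6J (242 to 700.0 CPM, 1.65, adjusted p = 8e-05). Amdhd1, a later enzyme of histidine breakdown, fell in C57BL/6J, DBA/2J, 129S1/SvImJ and PWK/PhJ (log2 fold change -0.60 in PWK/PhJ, adjusted p = 4.3e-05).

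Pericentral genes were called lower in 3 strains only. Of 15, the number called higher on WD was 4 each for C57BL/6J, DBA/2J, 129S1/SvImJ and CAST/EiJ, 2 each for WSB/EiJ and PWK/PhJ and 1 for A/J. The 2 of 15 for PWK/PhJ are near the share of all genes that rose in this strain, 15.1%. The number called lower was 3 for C57BL/6J, 4 for PWK/PhJ, 1 for A/J and 0 for the other strains. Aldh3a2, a fatty aldehyde dehydrogenase, rose in 6 strains, most in DBA/2J (125 to 449 CPM, 2.01, adjusted p = 6.8e-11), and Slc22a3, an organic cation transporter, in 4 (log2 fold change 1.47 in DBA/2J, adjusted p = 0.00013). Of 10 hepatocyte genes not used here as zone markers, 6 fell in PWK/PhJ, 5 each in C57BL/6J, 129S1/SvImJ and A/J, 4 in WSB/EiJ, 2 in DBA/2J and 1 in CAST/EiJ, and 0 rose in any strain. The zone of these genes was not examined. In CAST/EiJ 9.73% of all genes fell. Alb, the most abundant of these, fell in 6 strains (log2 fold change -0.70 in C57BL/6J, adjusted p = 1.1e-09). Serpina1e, a member of a family of near-identical genes whose reads the counting could split, fell in 2, by 4.85 on the log2 scale in A/J (adjusted p = 4.2e-07).

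**Figure D5:**
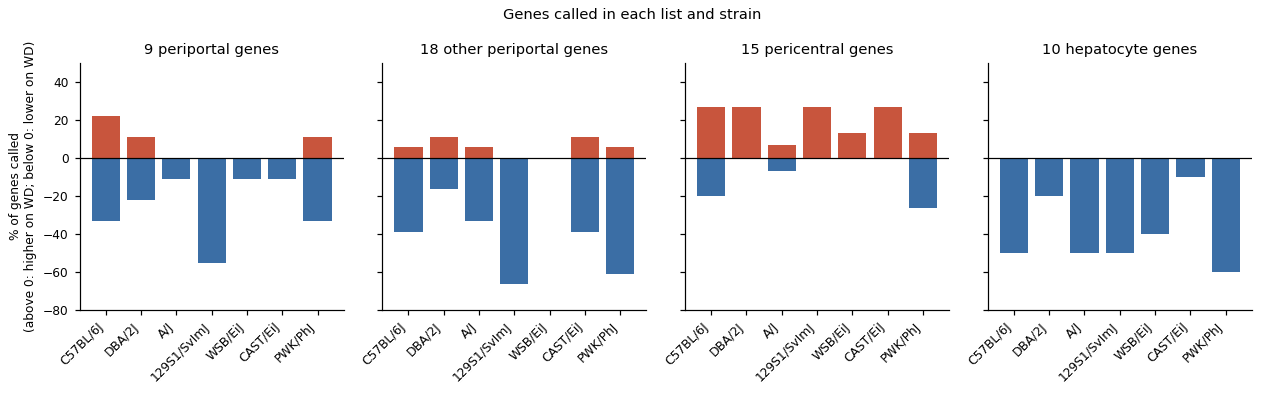
Bars give the percentage of the genes of each list called higher (above 0) or lower (below 0) on WD in each strain, with the 9 genes in the left panel. Decreases make up most calls among the 18 other periportal genes, 12 of 18 in 129S1/SvImJ, and all calls among the 10 hepatocyte genes. Over all genes, 3.97% to 14.5% were called lower and 4.39% to 15.1% higher, by strain.

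Regulators of zonation were read as a list of 12, of which 8 fell for 129S1/SvImJ, 3 for A/J, 4 for C57BL/6J, 2 each for DBA/2J and PWK/PhJ, 1 for CAST/EiJ and 0 for WSB/EiJ. The counts for PWK/PhJ and CAST/EiJ are near the shares of all genes that fell, 14.5% and 9.73%. Notum, a Wnt inhibitor that Wnt signals induce, fell in 4 strains, most in DBA/2J (20.0 to 8.23 CPM, -1.21, adjusted p = 1.9e-07), and rose in CAST/EiJ (0.70, adjusted p = 0.00015). Hhex, a homeobox factor, was called in CAST/EiJ alone, higher (1.48, adjusted p = 0.0078). At most 2 regulators rose in any strain. Of 11 paralogs and pathway partners of the 9 genes, 5 fell in PWK/PhJ, 4 in 129S1/SvImJ and at most 1 in each other strain, and at most 2 rose in any strain. The lists share some genes, so their counts are not separate. Sdsl, Uroc1 and Ftcd are both partners and other periportal genes, and Hnf4a is both a regulator and a hepatocyte gene.

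Markers of other cell types also moved with diet. Over all genes, 4.39% (A/J) to 15.1% (PWK/PhJ) rose and 3.97% (WSB/EiJ) to 14.5% (PWK/PhJ) fell, and a count of 1 is the smallest nonzero count a list can give. Leukocyte markers rose in 129S1/SvImJ (8 of 8), PWK/PhJ (7), C57BL/6J (6), WSB/EiJ (2) and CAST/EiJ (1), led by Lyz2, a lysozyme (log2 fold change 3.27 in PWK/PhJ, adjusted p = 6.5e-13), and Cybb, the NADPH oxidase subunit (1.44, adjusted p = 1.5e-07). Kupffer cell markers rose in 129S1/SvImJ (3 of 6), C57BL/6J and PWK/PhJ (2 each) and CAST/EiJ (1), most often Cd5l and Adgre1. Stellate cell markers rose in PWK/PhJ (3 of 6), C57BL/6J and 129S1/SvImJ (2 each) and A/J (1), most often the collagens Col1a1 and Col1a2. Neutrophil markers rose in 129S1/SvImJ and PWK/PhJ (3 of 5 each) and in C57BL/6J and WSB/EiJ (1 each), with Retnlg and S100a9 in 2 strains each. Of 6 endothelial markers, 2 rose and 3 fell in C57BL/6J, 3 fell in DBA/2J, 2 rose in 129S1/SvImJ, 1 fell in WSB/EiJ and 1 rose and 1 fell in PWK/PhJ, with Lyve1 higher in 2 strains and Kdr lower in 3. Of the 5 hepatocyte markers, 3 fell in each of C57BL/6J, A/J, WSB/EiJ and PWK/PhJ, 2 in 129S1/SvImJ and 1 in both DBA/2J and CAST/EiJ, and Alb and Apoa1 fell in 6 strains each. All 5 are also among the hepatocyte genes counted above. The mean share of unmapped reads on CD and WD went from 3.50% to 7.88% in PWK/PhJ, from 4.52% to 7.42% in WSB/EiJ, from 10.8% to 13.3% in CAST/EiJ, from 4.55% to 5.57% in 129S1/SvImJ and from 2.23% to 2.82% in C57BL/6J. It was lower on WD in DBA/2J (6.45% to 4.77%) and A/J (2.25% to 2.11%). The part of cell makeup and of mapping in the diet effects on the 9 genes was not tested.

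The genes whose mean log2 CPM over the 14 groups was most like that of each of the 9, by Pearson's r over the 14 group means, were E030037K01Rik (0.94) and Mrpl39 (0.89) for Hal, Rbm14 (0.90) and Klhl25 (0.90) for Sds, Rnf25 (0.93) and Pxmp4 (0.92) for Gls2, Dirc2 (0.92) and Tmem101 (0.91) for Cyp2f2, Clcn7 (0.95) and Rps6ka5 (0.88) for Aldh1b1, and Atp5a1 (0.96) and Taok1 (0.93) for Sfxn1. For Cdh1 they were Pdp1 (0.92) and Med15 (0.88), for Pigr Hsd11b1 (0.94) and Gm8909 (0.93), and for Ctsc Klf2 (0.83) and Gm2614 (0.82). None of the 9 was among these for another. The values are the highest of 19110 genes and describe these 14 groups, which share libraries and strains.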

How the data were processed

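Liver RNA of 93 mice was sequenced with a SMARTER library kit on a BGISEQ-500. The authors mapped the reads with STAR 2.7.1a to GRCm38 (both per the submitters' processing notes) and deposited 1 table of raw counts per gene. The annotation release and the strand setting are not given in the sources used here. The 4 summary lines of the table were left out of library sizes. Ensembl identifiers were paired with symbols by GENCODE M21 (53360 of 53465).

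Counts were scaled by TMM (edgeR 4.0.16), filtered with filterByExpr (minimum count 10) to 19110 genes, and fitted with limma-voom (limma 3.58.1, R 4.3.3) over 14 strain and diet groups. Diet effects per strain, F tests over strains and each strain against the other 6 were adjusted by the Benjamini–Hochberg method over all genes tested and called below 0.05. CPM values are TMM-scaled, and CPM per kb divides by GENCODE exon bases. Neighbouring strains, in an order taken from the same values, were compared with exact two-sided permutation tests. Gene pairs were compared with two-sided permutation tests (SciPy 1.17.1). The code was tested on simulated data.

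The 9 genes and all other lists were chosen with earlier results of these data known. All 9 are described. From each other list the 2 genes with the largest mean change among those called in a strain are named, with others where a result needed them. For each of the 9, the 2 genes most like it over the 14 group means are named. Alternatives were another normalization, other filters, edgeR's quasi-likelihood test, DESeq2 1.42.0, quality weights, cohort, RNA integrity number, separate fits and leaving out mice. Leaving out each mouse of the 6 strains other than A/J was added after seeing the data. Depth was 40020424 to 49894856 gene reads per mouse.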

Additional observations from a re-analysis of the deposited data

Results flagged for a closer look

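Of 126 groups (9 genes in 14 groups of mice), 13 held 1 mouse far from the others by Dixon's test, and chance flags about 1 in 20. In C57BL/6J, CD mouse 2 had 175 CPM of Cyp2f2 and 219 CPM of Aldh1b1, and WD mouse 3 had 194 CPM of Sds and 90.7 CPM of Cdh1, each outside the rest of its group. In 129S1/SvImJ, CD mouse 7 had 4.26 CPM of Cdh1, the lowest of its group, and 1713 CPM of Pigr, the highest. PWK/PhJ CD mouse 3 had 642 CPM of Cyp2f2, the lowest, and 98.9 CPM of Aldh1b1, the highest. Ctsc reached 207 CPM in WSB/EiJ WD mouse 4 and 140.3 CPM in A/J WD mouse 3. Low values flagged were Sds at 76.5 CPM in CAST/EiJ WD mouse 3, Aldh1b1 at 83.4 CPM in DBA/2J WD mouse 5 and Sfxn1 at 107 CPM in WSB/EiJ WD mouse 3. The CAST/EiJ mouse also had the lowest Cyp2f2, Hal, Gls2, Pigr, Ctsc and Sfxn1 of its group and the highest Cdh1. The DBA/2J mouse also had the lowest Sds and Gls2 of its group and the highest Cdh1, and the WSB/EiJ mouse the highest Cdh1. What set these mice apart was not tested.

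The effect of WD differed between strains by the limma F test for Cdh1 (adjusted p = 3.12e-12), Hal (adjusted p = 1.5e-06), Sds (adjusted p = 0.000323), Ctsc (adjusted p = 0.00309) and Cyp2f2 (adjusted p = 0.0173).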

How the results depend on the processing

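Of 20 called diet effects, 14 were called under every alternative and with every mouse of the strain left out, 6 were lost in at least 1, and 0 changed sign. For genes called higher in C57BL/6J (2), edgeR's quasi-likelihood test, DESeq2 and no filter on low counts each gave 1 and separate fits per strain gave 0. Separate fits also lost Gls2 as lower in C57BL/6J (adjusted p = 0.059, limma). In DBA/2J (1 higher), edgeR, DESeq2 and the RNA integrity number as a covariate gave 0, while separate fits called Gls2 lower (-0.30, adjusted p = 0.0055) and quality weights called Ctsc lower (-0.40, adjusted p = 0.044). In A/J (0 higher, 1 lower), separate fits gave 1 higher, quality weights gave 1 higher and 2 lower, and no filter gave 0 lower. In WSB/EiJ (1 lower), edgeR and separate fits gave 0. In CAST/EiJ (0 higher, 1 lower), quality weights gave 1 higher, and at least 10 counts in every mouse gave 2 lower. With quality weights the diet effect differed between strains for 8 genes in place of 5, and with cohort or the RNA integrity number in the fit for 6. With cohort in the fit, 8 of 9 genes differed in level between strains on WD. That fit compares the first cohort of each strain and cannot adjust levels between strains for cohort. Centring by group and cohort left 1 of 7 positive and 0 of 1 negative gene pairs past both tests. With 1 mouse left out at a time, genes called higher ranged from 1 to 2 in C57BL/6J (1 without CD mice 3, 4 or 6 or WD mice 3 or 8) and from 0 to 1 in DBA/2J. Genes called lower ranged from 0 to 2 in A/J and from 1 to 2 in CAST/EiJ, and genes with a diet effect that differed between strains from 5 to 8, with 8 only without C57BL/6J CD mouse 2. The cause of these changes was not tested. No paired analysis was possible because the labels give no replicate numbers that pair mice across diets or strains. Counts of the 9 genes were high except for Cdh1 (79 reads at the lowest).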
